A study of Homo sapiens with 12 samples.

Results

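UM-UC9 and UM-UC14, a pair of lines grown from human bladder cancers, were compared on the 6 of 12 Illumina bead arrays on which FABP4 was high: 3 arrays of UM-UC9 cells given rosiglitazone at 1 µM for 24 hours, and 3 arrays of UM-UC14 cells carrying a non-targeting short hairpin RNA (shRNA). The arrays were taken by their titles and treatment labels, and all 13293 genes tested were described. The other 6 arrays were used as a frame: 3 of untreated UM-UC9 cells, which show what each line difference was without the drug, and 3 of UM-UC14 cells with an shRNA against FABP4, which give the same pair of lines at low FABP4. All cells were grown in medium with 10% fetal bovine serum. By the labels neither UM-UC9 group carried a hairpin and neither UM-UC14 group had the drug, so that drug, hairpin and line cannot be told apart in a direct comparison of the lines. Each line is a single cancer line, the labels name no vehicle, and nothing says whether the 3 arrays of a group came from separate cultures. A p-value here thus weighs a difference against the spread between arrays that may be technical repeats.

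FABP4 is a small cytoplasmic carrier of fatty acids, best known from fat cells and macrophages. Its gene is a direct target of PPARG, a nuclear receptor that pairs with RXR, binds fatty acid derivatives and switches on genes for lipid uptake, storage and oxidation. In the urothelium PPARG also acts with FOXA1 and GATA3 in the differentiation of the luminal layers, and rosiglitazone is a synthetic ligand of the receptor.

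Both lines carried general epithelial markers and differed in some urothelial ones. EPCAM, CDH1, KRT7, KRT8 and KRT19 were detected on all 6 arrays, while the uroplakin UPK3A was detected on none, KRT5 on none of the non-targeting arrays, and KRT13 and UPK1A on none of the rosiglitazone arrays. FOXA1, KRT13 and UPK2 were lower and PPARG higher in treated UM-UC9. GATA3 and UPK1B were detected on all 6 arrays and were closer in level. Their mean log2 intensities were 8.86 and 10.64 in treated UM-UC9 and 9.15 and 11.33 in UM-UC14. The summed linear level of the 15 markers, which a few bright genes dominate, ran from 81525 to 82844 in rosiglitazone-treated UM-UC9 and from 78931 to 88514 in UM-UC14 with non-targeting shRNA. Among markers of other cells, PTPRC (blood) and ADIPOQ (fat) were not detected on any of the 6, whereas CD14 (blood) was detected on all 3 rosiglitazone arrays and 1 of 3 non-targeting arrays, and LEP (fat) on all 6. Between 21275 and 22094 of 47323 probes were detected on each of the 6 arrays. One array stood apart: non-targeting replicate 1 correlated at r = 0.988 with the other arrays of its own group and at r = 0.989 with the FABP4 shRNA group, while rosiglitazone arrays correlated with their own group at r = 0.997 to 0.998. Counts without that array are given beside the results.

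FABP4 was at a similar level in both groups. Its normalized log2 intensity was 14.61, 14.71 and 14.66 in rosiglitazone-treated UM-UC9, 11.06, 11.01 and 10.82 in untreated UM-UC9, and 13.94, 14.13 and 14.06 in UM-UC14 with non-targeting shRNA. The treated UM-UC9 arrays all lay above the UM-UC14 arrays, which all lay above the untreated UM-UC9 arrays. The remaining difference was 0.62 log2 units (SE 0.11, adjusted p = 0.000206 by limma), a fold of 1.53, against -3.08 (SE 0.11) before the drug. In UM-UC14 with FABP4 shRNA the level was 10.36, 10.13 and 10.50. The line difference at low FABP4, untreated UM-UC9 minus UM-UC14 with FABP4 shRNA, was 0.64. PPARG itself was 14.22, 14.26 and 14.27 in treated UM-UC9, 14.78, 14.68 and 14.67 in untreated UM-UC9, and 12.45, 12.96 and 12.73 in UM-UC14. The receptor was higher in UM-UC9 by 1.54 log2 units with the drug (SE 0.11, adjusted p = 2.97e-08) and by 2.00 without it, and its 3 other kept probes gave 0.81 to 2.51 with the drug.

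With FABP4 at similar levels, a large share of the other genes still differed. A gene was called different between the lines at an adjusted p below 0.05, a fold of at least 2 and detection on at least 2 of 3 arrays in 1 of the groups. By that rule 3214 genes differed at high FABP4, 24.2% of those tested, 1643 of them higher (12.4%) and 1571 lower (11.8%) in rosiglitazone-treated UM-UC9. Before the drug 3449 genes differed (25.9%), 1725 higher (13%) and 1724 lower (13%) in untreated UM-UC9. These comparisons share the UM-UC14 arrays. With no minimum fold, 8502 genes (64.0%) differed at high FABP4. The median absolute line difference over all genes was 0.48 log2 units at high FABP4 and 0.51 before the drug. Rosiglitazone arrays correlated with the non-targeting group at r = 0.860, and so did the untreated UM-UC9 arrays. Leaving out non-targeting replicate 1 gave 3359 at high FABP4, and 3064 of the 3214 calls were kept with the same sign.

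Whether a line difference moved with the drug was read from the rosiglitazone change in UM-UC9, which equals the difference between those line comparisons and was called at an adjusted p below 0.05 with detection (4781 genes, 36.0% of those tested). Of the 4074 genes called in at least 1 of the line comparisons, 2025 (49.7%) had no called drug change and are described as held. For 1080 (26.5%) the drug brought UM-UC9 closer to UM-UC14 (shrunk), for 945 (23.2%) it moved UM-UC9 further away (grown), and for 24 (0.589%) the sign turned with both line differences at an adjusted p below 0.05 (reversed). Of all tested genes these were 15.2%, 8.12%, 7.11% and 0.181%. Without non-targeting replicate 1 the counts were 1852, 1388, 1055 and 25. In 418 of the shrunk genes the 95% interval of the remaining difference lay within 1 log2 unit of 0 (closed), and in 302 of the grown genes the interval before the drug did (opened). Among the 539 genes that the drug changed at least 2-fold (4.05% of those tested), 206 line differences shrank and 217 grew. Of the 316 genes raised at least 2-fold (2.38% of those tested), 162 differences grew and 97 shrank. Of the 223 lowered at least 2-fold (1.68%), 55 grew and 109 shrank.

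**Figure D1:**
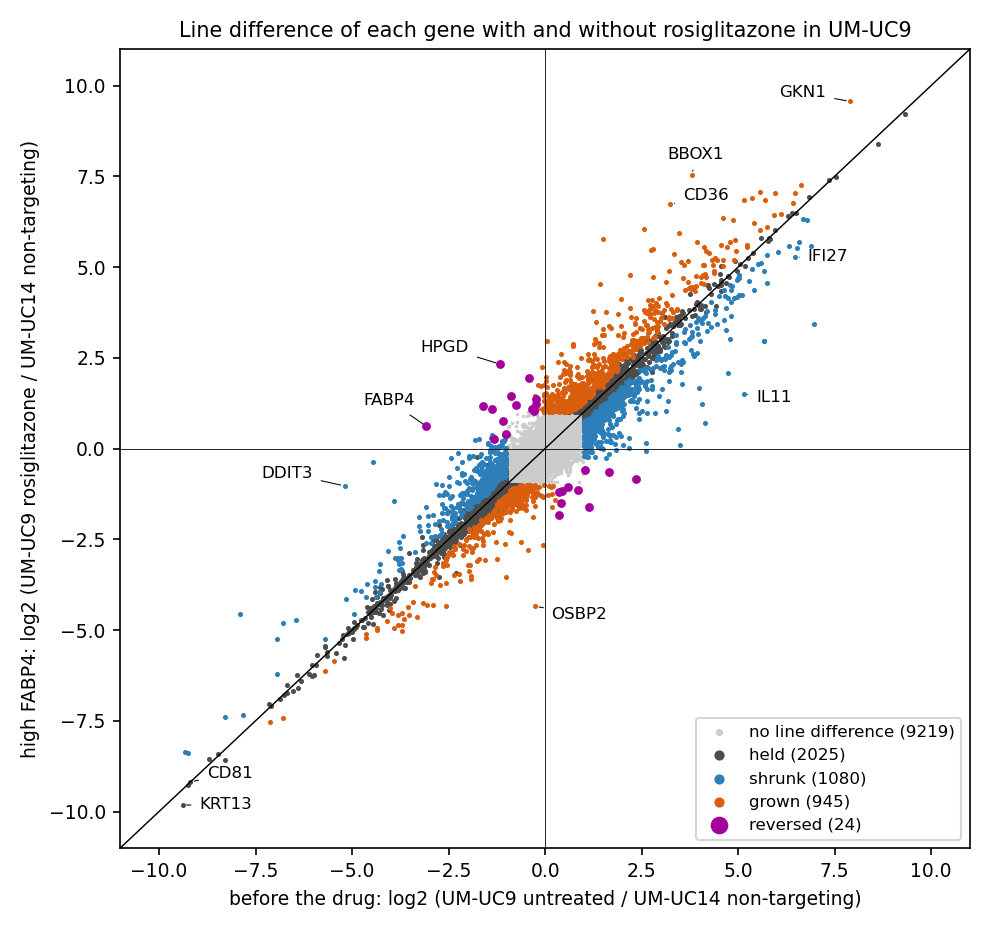
Each point is 1 of 13293 genes, with the log2 difference between untreated UM-UC9 and UM-UC14 non-targeting on the horizontal axis and that between rosiglitazone-treated UM-UC9 and UM-UC14 non-targeting on the vertical axis. The 2025 held genes lie along the diagonal, the 1080 shrunk genes between it and the horizontal zero line, the 945 grown genes beyond it, and the 24 reversed genes, FABP4 among them, in the opposite corners. Both axes use the same UM-UC14 arrays.

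Of 279 genes that differed at least 16-fold at high FABP4, a choice by size with the drug that favours grown over shrunk genes, 128 were held (45.9%), 104 had grown (37.3%) and 47 had shrunk (16.8%). In 444 of the 1643 genes higher in UM-UC9 the probe was undetected on all 3 UM-UC14 arrays, and in 387 of the 1571 lower genes it was undetected on all 3 treated UM-UC9 arrays. In such cases the fold is given as a lower bound, with the dim group set on each array at the lowest signal of any detected probe, or at its own signal where that was higher. KRT13, a keratin of the intermediate urothelial layers, read 4.26, 4.35 and 4.38 in treated UM-UC9, 4.64, 4.83 and 4.81 in untreated UM-UC9, and 14.13, 14.21 and 14.12 in UM-UC14. It was undetected in treated UM-UC9 and at least 648.5-fold lower there (adjusted p = 2.96e-17). The glutathione peroxidase gene GPX2 was at least 476-fold lower, the tetraspanin gene CD81 at least 441-fold, PLAT, which encodes tissue plasminogen activator, at least 293-fold, and COXFA4L2, a paralog of a respiratory chain subunit, at least 324-fold. LXN, which encodes the carboxypeptidase inhibitor latexin, was detected in both lines and differed by -8.42 log2 units (SE 0.17). None of these 6 genes had a called drug change; that of KRT13 was -0.43 (adjusted p = 0.00185) at levels under the detection rule in both UM-UC9 groups. GSTM2 and GSTM1, glutathione transferases of a near-identical family, differed by -8.40 and -8.36 log2 units and had shrunk, but the other GSTM2 probe gave 0.03. The other GSTM1 probes gave line differences of -8.73 and -8.55 but drug changes of -0.03 and 0.06. The GSTM2 values and the drug changes of both genes are thus uncertain.

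At the other end stood genes silent in UM-UC14. GKN1, known as a secreted stomach protein gene, read 14.17, 14.01 and 14.11 in treated UM-UC9, 12.48, 12.53 and 12.32 in untreated UM-UC9, and 4.56, 4.38 and 4.66 in UM-UC14, where it was undetected. It was at least 614-fold higher (adjusted p = 1.32e-16), and the drug raised it by 1.65 log2 units (SE 0.10). COXFA4L3, another paralog of a respiratory chain subunit, was at least 481-fold higher, RARRES1, a retinoid-responsive gene, at least 257-fold, the cancer-testis antigen gene MAGEA10 at least 132-fold and the elongation factor gene EEF1A2 at least 125-fold, and these 4 were held. Other probes gave smaller differences: 5.32 and 3.06 log2 units for COXFA4L3, 2.13 for MAGEA10, and 8.26 and 2.77 for RARRES1. The elastase inhibitor gene SERPINB1 (at least 123-fold) and the teneurin gene TENM3 (at least 92.6-fold) had grown, with drug changes of 0.63 and 1.49. Cancer-testis antigens, which are normally restricted to the germline, had 17 of 19 tested genes higher in treated UM-UC9, and 16 before the drug. For 15 of the 19 the probe was undetected in 1 group, so that many entered the test through the line in which they are high, and 7 further members fell under the detection filter; the count is given as a description only. Of these 17, 9 were held, 7 had shrunk and 1 had grown, and many of the MAGE genes are close copies whose probes may share signal.

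**Figure D2:**
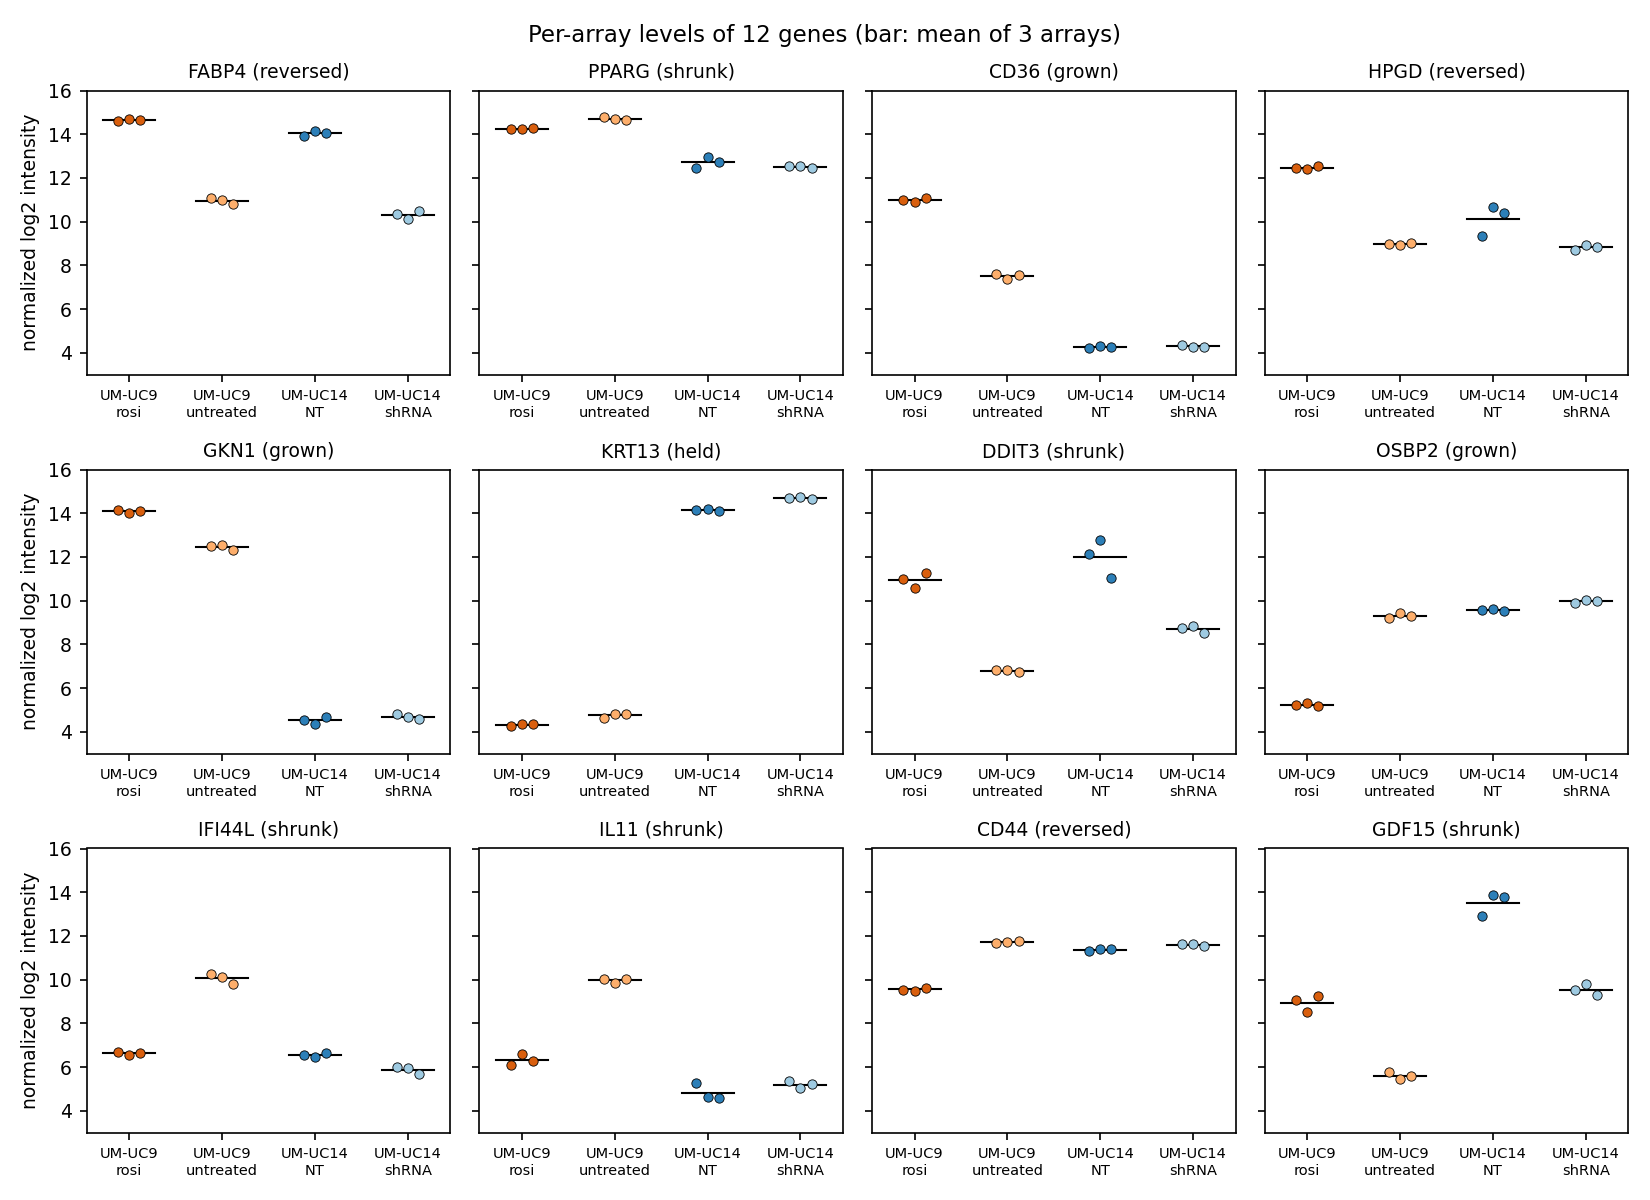
Normalized log2 intensity of 12 genes on each of the 12 arrays, with points for arrays, bars for the mean of 3 arrays, and groups from left to right UM-UC9 rosiglitazone, UM-UC9 untreated, UM-UC14 non-targeting (NT) and UM-UC14 FABP4 shRNA. FABP4 and DDIT3 in treated UM-UC9 stand near UM-UC14 non-targeting, CD36 and OSBP2 moved away from it, and KRT13 stayed near 4 in both UM-UC9 groups.

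Among PPARG target genes most line differences grew, and UM-UC9 had the higher level more often with the drug than before it. Of 32 tested PPARG target genes, 14 were higher and 1 lower in treated UM-UC9 than in UM-UC14, against 8 higher and 6 lower before the drug. The share called with the drug was 46.9%, beside 24.2% of all genes (12.4% higher and 11.8% lower). FABP4, for whose high level these groups were compared, is a member and was 1 of the 6 lower before the drug. Its leaving that side thus follows from the choice of groups. Leaving out that first array gave 14 and 2 with the drug. The list's median line difference was 0.87 log2 units with the drug and 0.27 without it, beside -0.02 and 0.02 for all genes. Of its 20 line differences 12 had grown, beside 23.2% grown over all genes, 5 had shrunk, 2 were held and 1, FABP4, was reversed. CD36, a membrane transporter of fatty acids, read 10.98, 10.92 and 11.09 in treated UM-UC9, 7.62, 7.38 and 7.55 in untreated UM-UC9, and 4.23, 4.30 and 4.29 in UM-UC14, where it was undetected. The line difference was at least 71.7-fold with the drug and at least 6.43-fold without it, and 2 other probes gave 5.00 and 6.49 log2 units with the drug. CPT1A, the carnitine palmitoyltransferase that admits fatty acids to mitochondria, was the 1 member lower in treated UM-UC9: it was undetected in both UM-UC9 groups, at least 5.19-fold lower than in UM-UC14 and held, while its other probes gave only -0.15 and -0.30.

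Among further members, chosen after their values were seen, the lipid droplet protein gene PLIN2 read 13.55, 13.57 and 13.71 in treated UM-UC9, 12.00, 11.92 and 11.98 in untreated UM-UC9, and 11.07, 11.44 and 11.45 in UM-UC14. Its difference had opened to 2.29 log2 units (SE 0.11, adjusted p = 1.65e-10), against 0.64 before the drug. PDK4, a kinase gene that restrains glucose oxidation, differed by 4.72 with the drug and 2.80 without it. The water and glycerol channel gene AQP7 was detected in treated UM-UC9 alone, at least 2.06-fold above UM-UC14. TXNIP, whose product inhibits thioredoxin, was the only member that the drug lowered: it read 10.29, 10.45 and 10.45 in treated UM-UC9, 13.07, 13.10 and 13.02 in untreated UM-UC9, and 10.37, 7.09 and 7.51 in UM-UC14, so that the first non-targeting array overlapped with treated UM-UC9 and the others lay far below it.

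Genes of fatty acid oxidation moved on both sides. Of 39 tested genes of oxidation and carnitine metabolism, 11 were higher and 7 lower in treated UM-UC9, against 6 and 8 before the drug, beside 12.4% higher and 11.8% lower over all genes with the drug. Of the 21 line differences 13 had grown (4 held, 4 shrunk), beside 23.2% grown over all genes, and the list's median was 0.38 log2 units with the drug and -0.23 before it. Without non-targeting replicate 1, 9 were higher and 7 lower. For 8 of the 39 the probe was undetected in 1 group (1457 of 13293 over all genes). Such genes can enter the test through the line in which they are high. BBOX1, the last enzyme of carnitine synthesis, read 12.03, 12.04 and 11.69 in treated UM-UC9, 8.25, 8.18 and 8.20 in untreated UM-UC9, and 4.48, 4.35 and 4.37 in UM-UC14. It was undetected in UM-UC14 and at least 136-fold higher with the drug, against at least 10.4-fold without it. ETFB, a subunit of the electron carrier that serves the acyl-CoA dehydrogenases, stood on the other side: it was undetected in both UM-UC9 groups, at least 78.4-fold lower with the drug, and held.

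Cholesterol synthesis and uptake had 6 of 23 genes higher and 1 lower with the drug, against 2 and 3 before it, and 6 of 10 line differences had grown, 5 of them opened. EBP, a sterol isomerase gene, was highest at 2.50 log2 units (SE 0.10), against 1.89 before the drug. OSBP2, an oxysterol-binding protein gene placed in this list, moved the other way and read 5.21, 5.31 and 5.19 in treated UM-UC9, 9.21, 9.44 and 9.30 in untreated UM-UC9, and 9.59, 9.63 and 9.51 in UM-UC14. Near-equal levels before the drug (-0.26) became a difference of -4.34 log2 units (SE 0.09, adjusted p = 2.67e-14). In the synthesis of fatty acids, triglycerides and phospholipids 9 of 30 genes were higher and 4 lower, against 5 and 3 before the drug, with 7 held, 6 grown and 1 shrunk. LPIN1, a phosphatidate phosphatase gene, had opened to 1.5 (SE 0.14) against -0.02 before the drug, whereas FADS1, a fatty acid desaturase gene, was held at -4.94 log2 units. The malic enzyme gene ME1 was at least 32.3-fold higher, and its drug change of 0.31 (adjusted p = 0.0492) lost its call under the replicate block and other alternatives. Of 13 genes for fatty acid binding and uptake, 2 were higher and 2 lower, and the transporter gene SLC27A3 was held at -4.32 log2 units. With the drug 30.4% of the cholesterol list was called, 43.3% of the synthesis list and 30.8% of the binding and uptake list, beside 24.2% of all genes. In 5 of the 30 synthesis genes the probe was undetected in 1 group (1457 of 13293 over all genes). Genes of that kind can enter the test through the line in which they are high.

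Genes of the interferon response, the antiviral alarm of the cell, were split by side. The drug lowered 32 of the 53 tested genes of this list, which includes MHC class I, and raised 4, beside 19% lowered and 17% raised over all genes. Here 16 genes were higher in untreated UM-UC9 than in UM-UC14; of these the drug lowered 14, and 14 differences shrank and 2 were held. Another 19 were lower in untreated UM-UC9, and of these the drug lowered 10, raised 1, and 10 differences grew, 8 were held and 1 shrank. With the drug 4 genes were thus higher and 21 lower in UM-UC9, against 16 and 19 before it, and the list's median was -0.25, against 0.02 before it. The share with a called line difference was 47.2% with the drug, beside 24.2% of all genes (12.4% higher and 11.8% lower). With the first non-targeting array left out, 2 were higher and 23 lower with the drug.

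IFI44L, an interferon-induced gene, read 6.71, 6.57 and 6.67 in treated UM-UC9, 10.26, 10.13 and 9.79 in untreated UM-UC9, and 6.56, 6.47 and 6.63 in UM-UC14. The treated UM-UC9 arrays overlapped those of UM-UC14, and a difference of 3.50 log2 units had closed to 0.09 (SE 0.12, adjusted p = 0.531). Its neighbour IFI44, chosen after its values were seen, read 7.60, 7.40 and 7.48 in treated UM-UC9, 10.14, 10.02 and 9.86 in untreated UM-UC9, and 10.59, 11.25 and 11.21 in UM-UC14. Here a fall of 2.51 widened the difference to -3.53 log2 units (SE 0.15, adjusted p = 6.67e-11), against -1.01 before the drug. OAS2, an antiviral oligoadenylate synthetase gene, shrank to 0.69 (SE 0.16) against 4.14, and 1 of its 3 other probes gave -0.10 with the drug. IFI27 stayed high at 5.27 (SE 0.31) against 6.48, and its first non-targeting array, at 6.50, stood above the others, at 5.15 and 4.87. OASL, another synthetase-like gene, had grown to -4.63 (SE 0.14) against -3.31. The ubiquitin ligase HERC6 and TRIM22, chosen after their values were seen, were reversed: HERC6 stood at -1.16 with the drug and 0.43 before it, and TRIM22, undetected in treated UM-UC9, was at least 2.21-fold lower with the drug and 0.41 log2 units higher before it.

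The stretches before the start of 3 of these genes are shown because they share the letters known as the core of the interferon-stimulated response element while their line differences moved in different ways. Each runs 250 bases up to the gene start, from RefSeq (GRCh38.p14), on the plus strand; capitals mark GAAANNGAAA on either strand.
IFI44L, closed, chr1:78620198-78620447: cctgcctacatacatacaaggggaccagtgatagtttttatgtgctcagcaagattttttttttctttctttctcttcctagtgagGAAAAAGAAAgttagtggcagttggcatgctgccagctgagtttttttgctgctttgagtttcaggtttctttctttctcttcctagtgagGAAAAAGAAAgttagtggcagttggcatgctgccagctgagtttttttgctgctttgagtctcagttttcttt
IFI27, shrunk, chr14:94110486-94110735: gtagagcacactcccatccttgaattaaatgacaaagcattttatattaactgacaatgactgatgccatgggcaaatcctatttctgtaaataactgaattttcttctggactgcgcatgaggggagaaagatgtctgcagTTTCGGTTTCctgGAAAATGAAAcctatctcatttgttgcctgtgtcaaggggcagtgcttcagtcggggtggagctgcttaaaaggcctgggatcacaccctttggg
IFI44, grown, chr1:78649539-78649788: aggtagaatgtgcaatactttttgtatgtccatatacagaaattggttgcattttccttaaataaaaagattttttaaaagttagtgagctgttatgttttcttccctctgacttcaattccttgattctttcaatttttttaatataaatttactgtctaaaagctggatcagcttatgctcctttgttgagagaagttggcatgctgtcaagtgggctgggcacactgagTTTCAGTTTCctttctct
Within 250 bases before and 50 after the start, these letters were found in 26 of the 42 list genes with a promoter entry (61.9%) and in 996 of all 27305 promoters (3.65%). They were present in 8 of 13 shrunk genes, 8 of 9 grown genes, 2 of 6 held genes and 0 of 1 reversed gene. A match describes the letters and not a bound site.

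**Figure D3:**
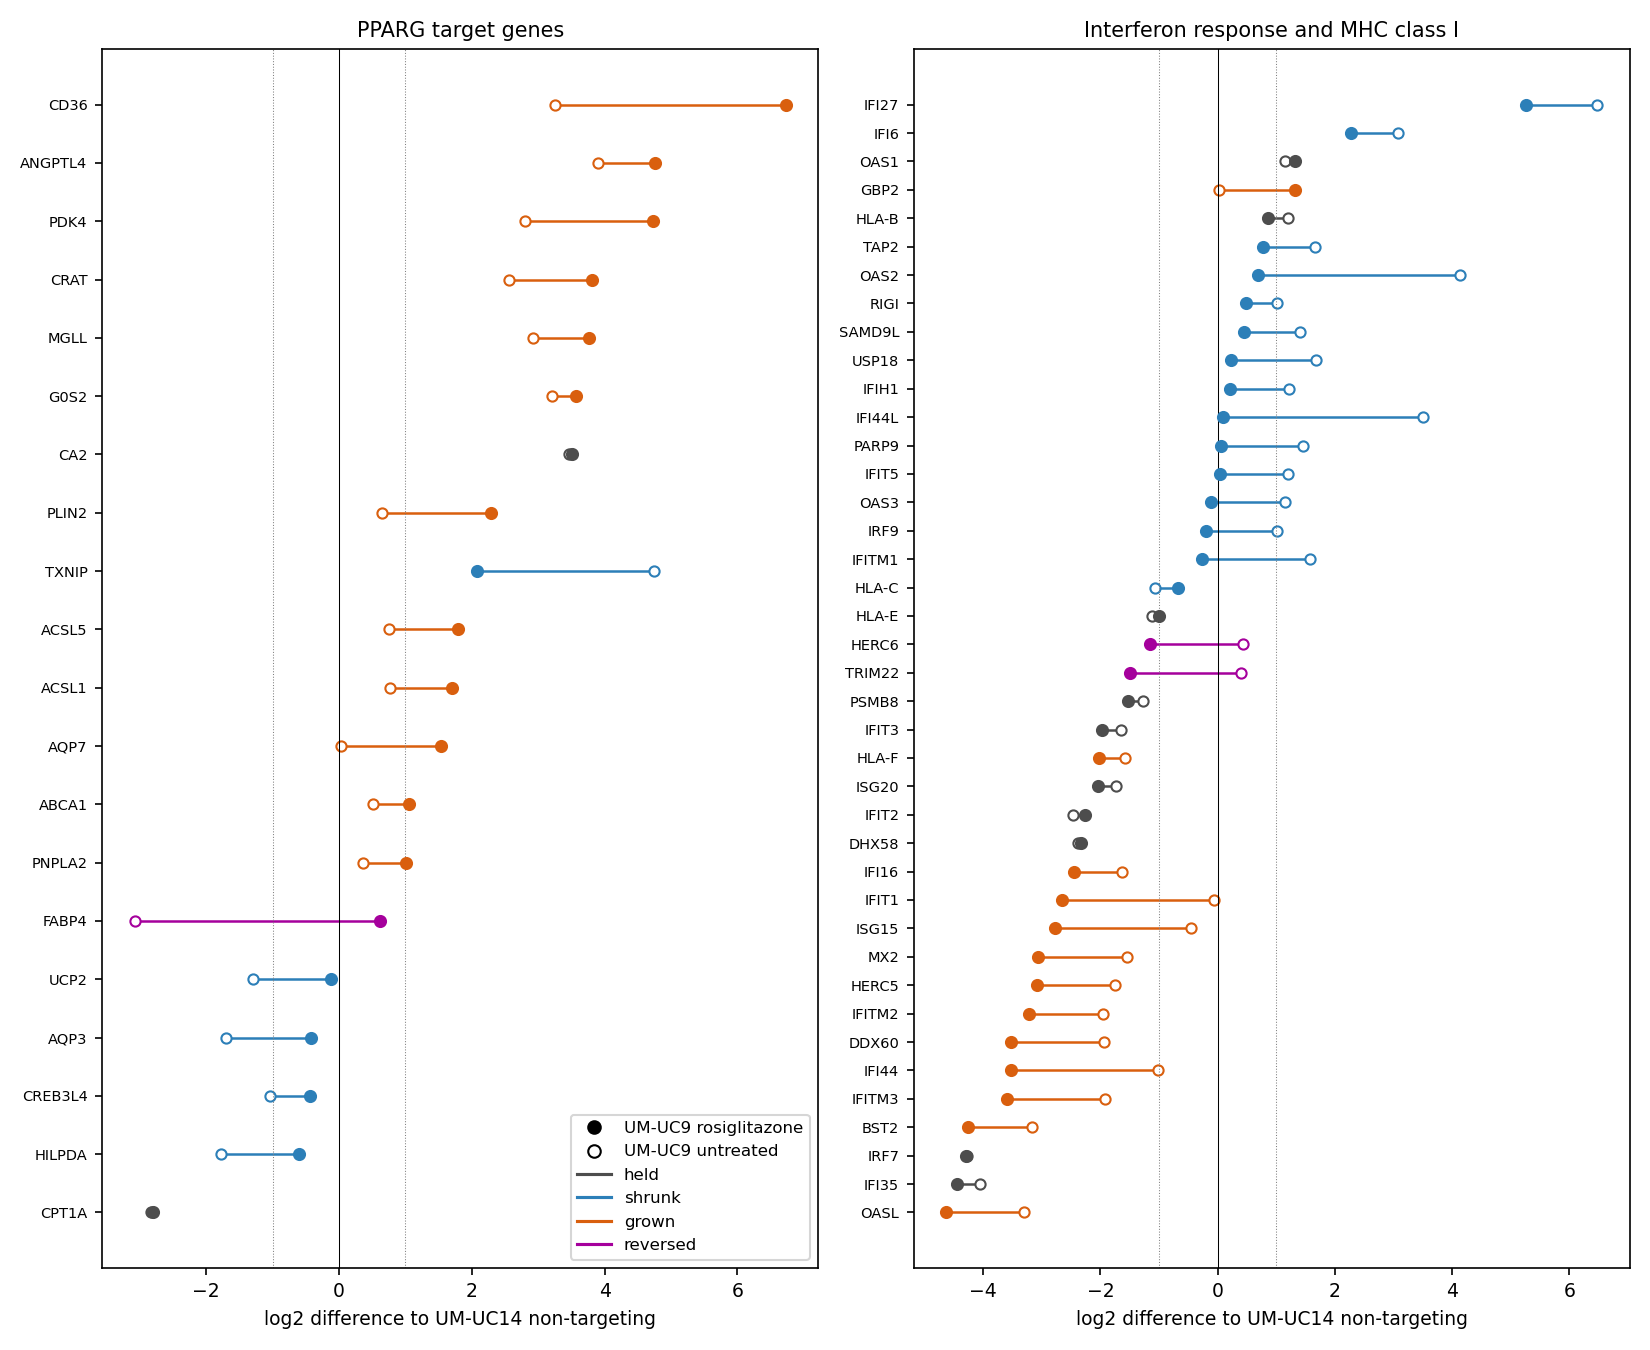
Line differences (log2, relative to UM-UC14 non-targeting) of the PPARG target genes and of the interferon and MHC class I genes called in at least 1 line comparison, with filled points for rosiglitazone-treated UM-UC9 and open points for untreated UM-UC9; dotted lines mark 2-fold. Most PPARG targets moved to the right, 12 of them away from UM-UC14, and most interferon genes to the left, towards 0 where UM-UC9 had been higher and away from it where it had been lower.

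Among stress response genes most line differences shrank. Of 35 tested ATF4, CHOP and unfolded protein genes, 8 were lower and 1 higher in treated UM-UC9, against 15 lower and 0 higher before the drug. The 25.7% called with the drug is near the 24.2% of all genes; 10 of 16 differences had shrunk, 5 were held and 1 had grown. Without non-targeting replicate 1, 6 were lower with the drug, and without replicate 3, 13. DDIT3, which encodes the stress transcription factor CHOP, read 11.01, 10.56 and 11.29 in treated UM-UC9, 6.83, 6.83 and 6.72 in untreated UM-UC9, and 12.14, 12.77 and 11.04 in UM-UC14. Treated UM-UC9 overlapped with UM-UC14, and a difference of -5.19 log2 units had shrunk to -1.03 (SE 0.31, adjusted p = 0.00997). That remainder fell under 2-fold without non-targeting replicate 1 (-0.95) or 2 (-0.64) or rosiglitazone replicate 2 (-0.84). GDF15, a stress-induced cytokine gene, read 9.06, 8.52 and 9.25 in treated UM-UC9, 5.78, 5.46 and 5.59 in untreated UM-UC9, and 12.90, 13.87 and 13.77 in UM-UC14. The drug raised it by 3.33, and a difference of -4.57 log2 units remained (SE 0.24), with no overlap between the lines. The lipoprotein receptor gene VLDLR was the member that had opened, at 1.09 (0.93 without non-targeting replicate 1).

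Hypoxia and glycolysis genes showed the same side. Of 34 tested, 12 were lower in treated UM-UC9 and 18 in untreated UM-UC9, with 0 higher in either. The share called with the drug was 35.3%, beside 24.2% of all genes. Of the 19 differences 10 had shrunk, 5 were held and 4 had grown. The glucose transporter gene SLC2A3 read 7.27, 6.55 and 7.63 in treated UM-UC9, was undetected in untreated UM-UC9, and read 7.61, 8.74 and 9.45 in UM-UC14. The highest treated array lay just above the lowest of UM-UC14, and the difference was -1.45 (SE 0.35) with the drug and at least 13.8-fold before it. ALDOC, a glycolytic aldolase gene, stood at -6.13 log2 units with the drug, and its drug change of -0.42 lost its call when any of several arrays was left out. FYB1, an adaptor protein gene of immune cells that is in no list, read 9.26, 9.46 and 9.30 in treated UM-UC9, 5.41, 5.01 and 5.32 in untreated UM-UC9, and 8.71, 10.18 and 10.22 in UM-UC14. A difference of -4.46 had closed to -0.37 (SE 0.29, adjusted p = 0.29), with treated UM-UC9 inside the range of UM-UC14. That overlap rests on non-targeting replicate 1: without it the difference was -0.86, still under 2-fold, and all treated arrays lay below UM-UC14.

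Growth genes moved in different ways. Of 29 MYC and ribosome biogenesis genes, 2 were higher and 2 lower in treated UM-UC9, against 7 higher and 0 lower before the drug; 7 of 9 differences had shrunk and 2 had grown. Without non-targeting replicate 1, 4 were higher and 1 lower with the drug. POLR1B, an RNA polymerase I subunit gene, fell by 1.07 and was still 1.35 log2 units higher (SE 0.13), while the nucleolar protein gene LYAR had grown to -1.62 (SE 0.16). Of 40 tested G2 and M phase genes, 5 were lower with the drug and 9 without it, none higher, and 7 of 9 differences had shrunk. The topoisomerase gene TOP2A stood at -1.51 (SE 0.09) with the drug and at -2.03 before it. The drug change of the ubiquitin-conjugating enzyme gene UBE2C (0.30) was opposite in sign at its other probe. S phase genes were higher in 2 of 38 cases and lower in 7, against 2 and 6 before the drug, with 4 differences grown, 3 shrunk and 3 held. With the drug 23.7% of the S phase list was called, 12.5% of the G2 and M phase list and 13.8% of the MYC list. None of these exceeded the 24.2% of all genes. The ribonucleotide reductase gene RRM2 had grown to -1.99 (SE 0.16), against -1.23, and SLBP, a histone mRNA binding protein gene, stood at -2.28. The polymerase gene POLA1 was held at 1.18, but its other probe gave 0.61 and the mean of its kept probes 0.90, both under 2-fold.

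Differentiation genes were mixed. Of 27 luminal keratin, uroplakin and surface genes, 6 were higher and 9 lower with the drug, against 7 and 12 before it; 9 of 20 line differences were held, 8 had shrunk, 5 of them closed, and 3 had grown. The umbrella cell keratin gene KRT20 read 7.63, 7.48 and 7.94 in treated UM-UC9, 6.15, 5.76 and 5.96 in untreated UM-UC9, and was undetected in UM-UC14. It was at least 7.21-fold higher with the drug. The mucin gene MUC4 was at least 17.3-fold higher and held, although its other probes gave 0.01 and 0.68 log2 units. Among 14 differentiation factors, ZNF750, a factor of epidermal differentiation, was 2.89 log2 units higher, TBX3, a T-box factor, at least 26.1-fold lower and held (-2.47 log2 units at its other probe), and FOXA1, a pioneer factor of luminal cells, stood at -2.67 (SE 0.16) against -1.78 before the drug. The drug change of FOXA1 was -0.89. With the drug 55.6% of the luminal list and 42.9% of the differentiation factors were called, beside 24.2% of all genes. In 5 of the 27 luminal genes the probe was undetected in 1 group (1457 of 13293 over all genes). Genes of that kind can enter the test through the line in which they are high.

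The basal list was also divided, with 5 of 16 genes higher and 6 lower with the drug, as before it. The share called with the drug was 68.8%, beside 24.2% of all genes. KRT14, a keratin of basal cells, read 7.85, 8.00 and 7.65 in treated UM-UC9, 6.19, 6.21 and 6.28 in untreated UM-UC9, and 5.29, 4.43 and 4.35 in UM-UC14. The difference had grown to 3.14 log2 units (SE 0.19), against 1.53, with KRT14 detected on 1 of the 3 UM-UC14 arrays, so that the sizes are uncertain. CD44, a hyaluronan receptor gene, read 9.55, 9.48 and 9.63 in treated UM-UC9, 11.69, 11.74 and 11.77 in untreated UM-UC9, and 11.29, 11.41 and 11.42 in UM-UC14. It was reversed to -1.82 (SE 0.08, adjusted p = 1.65e-10) against 0.36, and its other probes gave -0.61 and -1.81 with the drug. CDH3, the P-cadherin gene, stood at -5.86 log2 units, with a drug change of -0.39 that lost its call when any of 3 single arrays was left out. Cornified envelope and clade B serpin genes were higher in 8 of 19 cases and lower in 2, or 52.6% called. For 7 of the 19 the probe was undetected in 1 group (1457 of 13293 over all genes). Such genes can enter the test through the line in which they are high. SPRR2D, a cornified envelope gene, fell by 3.53 and was at least 8.21-fold higher than in UM-UC14 with the drug and at least 94.6-fold without it, and the cystatin gene CSTA was at least 5.49-fold lower and held.

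Most line differences of adhesion, mesenchymal and protease genes were held. Of 22 epithelial junction genes, 8 were higher and 1 lower, and 7 of 10 line differences were held (4 of 9 without non-targeting replicate 1). The desmosomal cadherin DSC2 read 10.52, 10.61 and 10.64 in treated UM-UC9, 10.63, 10.58 and 10.54 in untreated UM-UC9, and 5.21, 4.95 and 5.42 in UM-UC14, a held difference of 5.40 (SE 0.11; 3.81 at its other probe). The tight junction gene CLDN1 was the member lower in treated UM-UC9, at -1.30 (SE 0.10) against -0.32 before the drug. Of 17 mesenchymal genes, 2 were higher and 8 lower, and 7 of 10 were held. Tropomyosin TPM1 stood at 3.42 and SNAI2, a repressor of epithelial genes, at -4.51, both held at the probe used. The other TPM1 probes gave 2.05 to 3.62, with drug changes of 0.06 to 0.62 against -0.11. The other SNAI2 probe gave -3.80, with a drug change of 0.33. TGFBI, a secreted matrix protein gene induced by TGF-beta, had grown to -3.46 (SE 0.15) against -2.22. Metalloproteinase and plasminogen genes were higher in 8 of 22 cases and lower in 9, and 12 of 18 differences were held. For 7 of the 22, and for 4 of the 17 mesenchymal genes, the probe was undetected in 1 group (1457 of 13293 over all genes). Such genes can enter the test through the line in which they are high. ADAM19, a metalloprotease gene, was at least 10.5-fold higher and had shrunk. With the drug 40.9% of the junction list was called, 58.8% of the mesenchymal list and 77.3% of the metalloproteinase list, beside 24.2% of all genes.

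**Figure D4:**
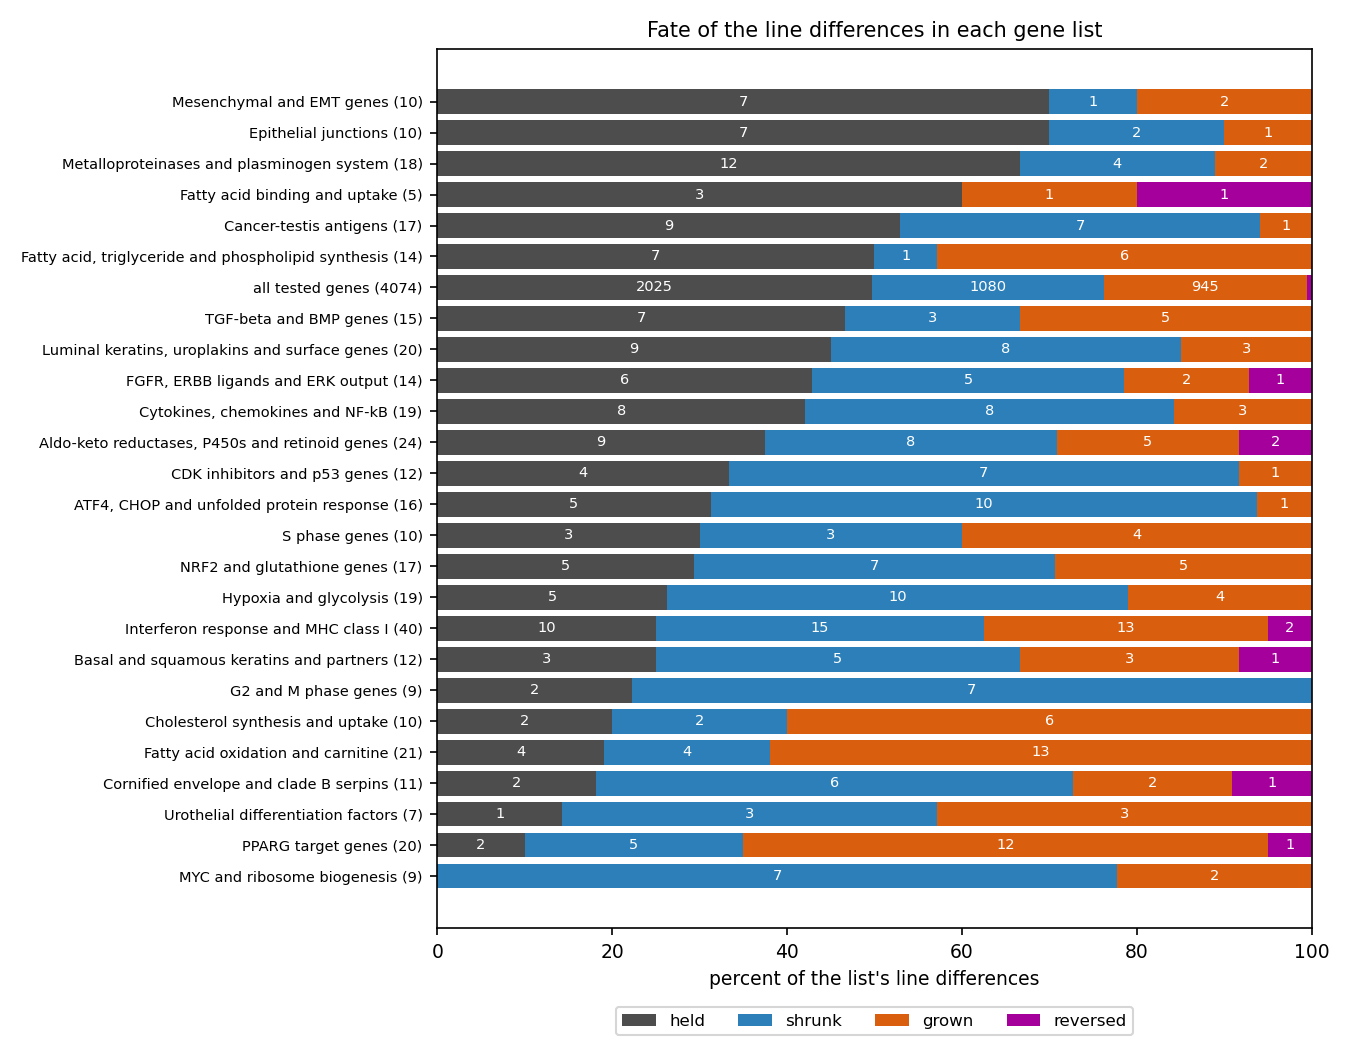
Share of each gene list's line differences that were held, shrunk, grown or reversed once UM-UC9 had rosiglitazone, in percent, with the number of genes in each bar and the number of line differences in brackets; lists with at least 5 line differences are shown, sorted by the share held. Over all genes 49.7% were held, with the junction and mesenchymal lists at 70% and the PPARG target list at 10.0%.

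Detoxification genes were called lower more often than higher in UM-UC9, with members on both sides. NRF2 and glutathione genes were higher in 4 of 31 cases and lower in 9, against 2 and 12 before the drug, and 7 of 17 had shrunk. The cystine transporter gene SLC7A11 read 6.40, 6.18 and 6.27 in treated UM-UC9, was undetected in untreated UM-UC9, and read 6.85, 7.24 and 6.37 in UM-UC14. The highest treated array lay just above the lowest of UM-UC14. Its difference had closed to -0.53 (SE 0.16), against at least 4.01-fold before the drug. Of 35 aldo-keto reductase, P450 and retinoid genes, 8 were higher and 12 lower, against 7 and 16 before the drug. With the drug 41.9% of the NRF2 and glutathione list and 57.1% of the reductase, P450 and retinoid list were called, beside 24.2% of all genes. In 5 of the 31 and 5 of the 35 genes the probe was undetected in 1 group (1457 of 13293 over all genes). Genes of that kind can enter the test through the line in which they are high. The reductase AKR1C2 stood at -7.39 log2 units, but its probes, which may share signal with near-identical AKR1C genes, gave -0.23 to -6.38 otherwise, and 2 of the 4 gave a drug change of the opposite sign. FMO9P, a flavin monooxygenase pseudogene, read 11.13, 11.15 and 11.35 in treated UM-UC9, 7.06, 6.88 and 6.83 in untreated UM-UC9, and 4.97, 5.74 and 5.60 in UM-UC14. Its difference had grown to 5.77 (SE 0.16), against 1.49.

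Cytokine, chemokine and NF-kB genes were higher in treated UM-UC9 in 14 of 31 cases and lower in 3, against 15 and 3 before the drug. For 8 of these 31 the probe was undetected in 1 group (1457 of 13293 over all genes). So it was for 6 of the 21 TGF-beta and BMP genes and 4 of the 23 CDK inhibitor and p53 genes below. Such genes can enter the test through the line in which they are high. IL11, an interleukin of the IL-6 family, read 6.11, 6.59 and 6.29 in treated UM-UC9, 10.03, 9.86 and 10.02 in untreated UM-UC9, and 5.27, 4.63 and 4.57 in UM-UC14. It fell by 3.64, and the difference had shrunk to 1.5 (SE 0.17) against 5.14, with IL11 detected on 1 of the 3 UM-UC14 arrays, so that the sizes are uncertain. TNFAIP3, an inhibitor of NF-kB, was held at 3.80 and IL1RN, the interleukin 1 receptor antagonist gene, at -3.67, although the other IL1RN probe gave -0.36. FGFR, ERBB ligand and ERK output genes were higher in 5 of 29 cases and lower in 5 (4 and 8 without non-targeting replicate 1), against 8 and 6 before the drug. EGR1, an immediate early gene, was 3.96 log2 units higher (SE 0.16), and FGFR3, a growth factor receptor often mutated in bladder cancer, stood at -3.32 (-1 at its other probe); the small drug change of FGFR3 (0.42) was opposite in sign at its other probe. TGF-beta and BMP genes were higher in 4 of 21 cases and lower in 10, with FSTL1 at least 5.04-fold higher and held and ID3, an inhibitor of differentiation, opened to -1.28 (SE 0.17). CDK inhibitor and p53 genes were higher in 4 of 23 cases and lower in 4, against 5 and 7: CDKN2A was at least 13.5-fold higher, TP53I3 was held at -3.84 (-1.48 at its other probe), and GADD45B had shrunk to -0.78 (-1.15 without non-targeting replicate 1). Oxidative phosphorylation genes were higher in 3 of 41 cases and lower in 0, the highest being NDUFV1 at 1.5, a complex I subunit gene. With the drug 54.8% of the cytokine list was called, 34.5% of the FGFR list, 66.7% of the TGF-beta list and 34.8% of the CDK inhibitor list. The oxidative phosphorylation list, at 7.32%, lay below the 24.2% of all genes.

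CRH and SCGB2A1, in no list, were named for their large drug changes among grown genes. CRH, which encodes corticotropin-releasing hormone, read 10.65, 10.10 and 10.60 in treated UM-UC9, 7.25, 6.83 and 6.79 in untreated UM-UC9, and was undetected in UM-UC14, a difference of at least 49.0-fold against at least 4.36-fold. SCGB2A1, a secretoglobin gene, was at least 16.2-fold higher with the drug and at least 1.89-fold without it.

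The 24 reversed genes include FABP4, and the drug moved each of them at least 2-fold, 14 up and 10 down. HPGD, a prostaglandin-degrading enzyme, read 12.46, 12.41 and 12.52 in treated UM-UC9, 8.99, 8.92 and 9.01 in untreated UM-UC9, and 9.36, 10.66 and 10.39 in UM-UC14. UM-UC9 stood 2.33 log2 units above UM-UC14 with the drug (SE 0.23, adjusted p = 7.63e-07), against -1.17 before it. PADI4, a peptidylarginine deiminase gene, stood at 1.16 against -1.62, and ACSBG1, an acyl-CoA synthetase gene, at 1.09 against -1.38. IER3, an immediate early gene, stood at -0.64 against 1.66. TGM2, a transglutaminase gene, gave -0.84 against 2.37, but its 2 other probes gave 0.65 and 0.01 with the drug. DIO2, a deiodinase gene that activates thyroid hormone, read 5.01, 5.12 and 5.28 in treated UM-UC9, 7.79, 7.95 and 7.91 in untreated UM-UC9, and 8.05, 6.15 and 6.04 in UM-UC14. Its -1.61 at high FABP4 was -0.96 without non-targeting replicate 1, the array that lay above the others of its group. ACSBG1 fell under 2-fold without non-targeting replicate 1 (0.98) or 2 (0.96), and PADI4 without replicate 2 (0.94).

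Markers of other cell types were partly detected. The summed linear level of 8 fibroblast markers ran from 370 to 389 in treated UM-UC9 and from 474 to 651 in UM-UC14. COL1A2 was at least 3.43-fold higher and COL1A1 at least 2.42-fold lower in treated UM-UC9, and LUM, a matrix proteoglycan gene, stood at -1.36 log2 units. The 4 endothelial markers summed to 422 to 429 in treated UM-UC9 and 209 to 382 in UM-UC14, where the vascular cadherin gene CDH5 read 5.62, 7.42 and 7.50, so that it was at least 4.10-fold lower in treated UM-UC9, while PECAM1 was 1.54 log2 units higher. VWF was not detected in either. Blood markers summed to 122 to 128 in treated UM-UC9 and 108 to 125 in UM-UC14, and adipocyte markers to 187 to 243 and 221 to 255. The part of other cell types in the results was not tested.

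The same pair of lines at low FABP4, on the 6 arrays that the comparison at high FABP4 does not use, was set beside it. At low FABP4 3127 genes were called (23.5%), 1580 higher (11.9%) and 1547 lower (11.6%) in untreated UM-UC9, and 2378 were called with the same sign at both FABP4 levels, 74.0% of the calls at high FABP4 and 76.0% of those at low FABP4. Another 5 were called with opposite signs, and 3153 of the 3214 genes (98.1%) had the same sign at any p. The line differences correlated at r = 0.913 across the 13293 genes, which are not independent replicates. The difference between the comparisons themselves was called for 703 genes (5.29%), 330 higher (2.48%) and 373 lower (2.81%) at high FABP4, among them 431 of the 3214. It includes the drug's effect in UM-UC9 and the hairpin's in UM-UC14. DSC2, detected in all groups, differed by 5.40 at high and 5.63 at low FABP4. FABP4 stood at 0.62 and 0.64, with a difference of -0.02 (SE 0.16, adjusted p = 0.943).

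**Figure D5:**
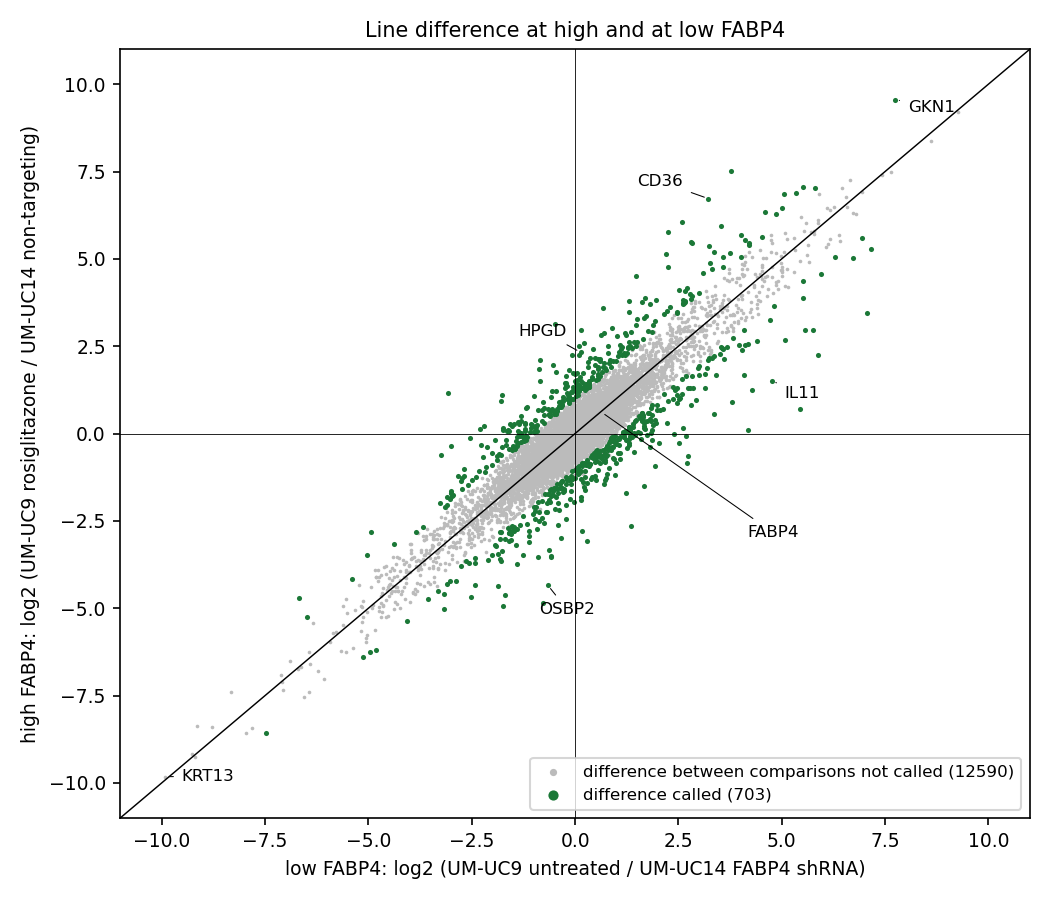
Each point is 1 of 13293 genes, with the line difference at low FABP4 (untreated UM-UC9 minus UM-UC14 FABP4 shRNA, log2) on the horizontal axis and that at high FABP4 (rosiglitazone-treated UM-UC9 minus UM-UC14 non-targeting, log2) on the vertical axis. The axes share no arrays; 703 genes in green had a called difference between the comparisons, and FABP4 lies at 0.62 against 0.64 near the diagonal.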

How the data were processed

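RNA of 4 groups, each with 3 arrays, was measured on Illumina bead arrays. The deposited table gives each probe's raw intensity and detection p-value on every array, per the file headers, and the authors also deposited processed log2 values; quantile normalization of the log2 raw intensities came within 0.0106 of them, and they served as an alternative. The sources used here name no scanner software. Intensities were normalized with neqc (normexp with the detection p-values, offset 16, quantile, log2) in limma 3.58.1 under R 4.3.3, with Python 3.11.15 for counts and figures. Of 47323 probes, 25176 were detected at p below 0.05 on at least 3 arrays, and the brightest kept probe stood for each of 13293 genes. Group means over 12 arrays were fitted with lmFit and eBayes (8 residual degrees of freedom), with Benjamini-Hochberg adjustment over all genes. The number of arrays limits the precision, and the fit was tested on simulated data.

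The compared arrays, gene lists and named genes were chosen with earlier results of these data known. The 29 lists hold 867 entries, of which 719 were tested. Genes are named by a fixed rule: FABP4 and PPARG, the 8 highest and 8 lowest line differences, the 6 largest drug changes in each moving class, and the extremes of each list; others are said to be chosen after their values were seen. Same-numbered arrays deviated together in 2 of 18 pairs at r over 0.1 (-0.086 to 0.147). The labels do not say whether same-numbered arrays were prepared together, and these values cannot decide it. No pairing was assumed, and the replicate block was fitted as an alternative. Promoter sequences are RefSeq's (GRCh38.p14).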

Additional observations from a re-analysis of the deposited data

Results flagged for a closer look

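For 36 of the 88 named genes the line difference at high FABP4 and that at low FABP4 differed by a called amount (limma test of the difference of the differences, at least 2-fold). Over all tested genes the count was 703 of 13293 (5.29%). Many named genes were chosen by the size of their drug change, which is part of this difference. Their share is thus raised by the choice and is no result of its own. The values are the line difference at high FABP4 minus that at low FABP4 in log2 units, and their causes were not tested. In 20 genes the line difference was lower at high FABP4. Values past 2 log2 units were found for OAS2 (-4.75), IFI44L (-4.08), OSBP2 (-3.69), SPRR2D (-3.62), TGM2 (-3.56), IER3 (-3.37), IL11 (-3.26), OASL (-2.93), TGFBI (-2.20) and ID3 (-2.03). Smaller values were found for CD44 (-1.95), IFI27 (-1.90), DIO2 (-1.86), CLDN1 (-1.68), CDH5 (-1.63), RRM2 (-1.33), CSTA (-1.22), FOXA1 (-1.19), ADAM19 (-1.14) and COXFA4L2 (-1.08). In 16 genes it was higher at high FABP4. Values past 2 log2 units were found for KRT20 (2.12), HPGD (2.20), LPIN1 (2.35), FYB1 (2.64), ACSBG1 (2.86), SCGB2A1 (3.06), CRH (3.48), CD36 (3.50), FMO9P (3.53), KRT14 (3.64), BBOX1 (3.74) and PADI4 (4.23). Smaller values were found for EBP (1.16), LUM (1.40), TENM3 (1.54) and GKN1 (1.82). For genes undetected in 1 of the groups, such as OAS2 in UM-UC14 with FABP4 shRNA, these are fitted values whose size is uncertain. PADI4 stood at 1.16 at high FABP4 and -3.07 at low FABP4. No group held enough arrays for a formal search for single outlying arrays. Non-targeting replicate 1 was singled out by its correlations alone.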

How the results depend on the processing

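Of the counts over all genes and the FABP4 values, these moved. Requiring detection on all 6 arrays gave 1050 genes higher in UM-UC9 at high FABP4, 1148 before the drug and 1029 at low FABP4, and 1237 held. A minimum fold of 1.5 gave 2826 higher and 2877 lower at high FABP4, 3074 and 2980 before the drug, 2791 and 2857 at low FABP4, 1084 and 1018 for high minus low, and 3814 held, 1807 shrunk, 1474 grown, 73 reversed, 1144 closed and 830 opened. A minimum of 4 gave 601 and 568, 569 and 579, 569 and 534, and 41 and 47 in the same order, with 644 held, 322 shrunk, 390 grown, 3 reversed, 14 closed and 16 opened. A 2-fold minimum on the drug change left 316 raised and 223 lowered, 3627 held, 206 shrunk, 217 grown, 111 closed and 93 opened. Without background correction, high minus low gave 185 and 198, with 1294 held and 13 reversed, and the authors' processed values gave 210 and 242, with 15 reversed. The mean of all kept probes reversed the drug change of FGFR3 (-0.029) and UBE2C (-0.047); the cause of these shifts was not tested. Leaving out 1 array gave 1636 to 1697 higher and 1523 to 1662 lower at high FABP4, 1658 to 1869 and 1667 to 1833 before the drug, 1571 to 1605 and 1547 to 1564 at low FABP4, 1716 to 2686 raised and 1868 to 3101 lowered by the drug, 326 to 366 and 350 to 458 for high minus low, 1852 to 2386 held, 870 to 1388 shrunk, 790 to 1056 grown, 18 to 25 reversed, 350 to 499 closed and 264 to 312 opened, and FABP4 at 0.56 to 0.66, -3.13 to -3.00 and 3.62 to 3.74. The replicate block gave 1643 and 1571 at high FABP4, 2214 and 2483 drug changes, and 2051, 1065, 936 and 22 genes by class, and ended the drug call of ME1 (adjusted p = 0.0711). Median scaling moved the share of higher calls among line differences to 57.38% (51.12% otherwise) and of raised calls to 40.01% (47.19%). Of the list counts, 1155 kept within 1.5 times and 61 did not. The high minus low difference could not be fitted with the arrays of 2 groups alone. With 3 arrays a group, small differences and dim probes are the least certain.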
